A study of Mus musculus with 4 samples.

Results

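The genes of the mitochondrial solute carrier family were examined for SHP binding in mouse liver. Members were the protein-coding genes of the GENCODE M1 annotation (mm9) whose symbol starts with Slc25a, together with the uncoupling protein genes Ucp1, Ucp2 and Ucp3. This gave 47 of 22380 protein-coding genes. A peak was assigned to a gene when its interval lay within 5 kb of the gene body, and 3 of 1508 peaks of the vehicle list and 13 of 3155 peaks of the FGF19 list met this rule.

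The mice were wild-type C57BL/6 males aged 8 to 12 weeks that had gone 12 h without food. They received FGF19 (1 mg/kg) or the vehicle alone by tail vein, and liver was collected after 2 h. Both groups thus shared the fast and the genotype. Each group was 1 ChIP library made with an SHP antibody and 1 input library, each pooled from 3 mice, so there is no replicate error, and the differences between the groups have no test. The ChIP libraries held 15473647 tags with vehicle and 13444078 with FGF19 after duplicate removal, and the inputs 16164473 and 17367587. The peak lists hold no expression values, and the liver label was not checked against marker genes.

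SHP cannot bind DNA by itself. It is brought to chromatin by transcription factors, whose activity it lowers. The SLC25 carriers sit mostly in the inner mitochondrial membrane, where they exchange nucleotides, carboxylates, amino acids, cofactors and metals between the cytosol and the matrix. In liver they link the mitochondrial and cytosolic steps of the urea cycle, export citrate for fatty acid and sterol synthesis, and bring acyl groups in for oxidation. The uncoupling proteins belong to the same family, and the product of Ucp1 returns protons to the matrix.

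SHP peaks were listed at 13 of the 47 carrier genes, which is 27.7% (95% Wilson interval 16.9 to 41.8), against 19.9% of all protein-coding genes. The other 34 had none in either list, 72.3% against 80.1%. Intervals given here cover counting error only. With vehicle, 3 carrier genes had a peak, 6.38% (2.19 to 17.2), against 7.93% of all protein-coding genes. With FGF19, 12 carrier genes had one, 25.5% (15.3 to 39.5), against 16.3% of all protein-coding genes, a value inside the carriers' interval. Slc25a15 and Slc25a47 had peaks in both lists, 4.26% of the carriers against 4.31% of all genes. Slc25a11 had a vehicle peak and no FGF19 peak, 1 gene or 2.13% against 3.62%. The other 10 genes had an FGF19 peak and no vehicle peak, 21.3% (12.0 to 34.9) against 12.0%.

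Much of the FGF19 count came from sequence around the genes and not from their own starts. Counting only summits within 1 kb of a transcription start site (TSS) of a protein-coding transcript of the carrier gene itself, 7 carriers were bound with FGF19, 14.9% (7.41 to 27.7) against 12.3% of all protein-coding genes. With vehicle 2 were bound in this way, 4.26% (1.17 to 14.2) against 5.43%. Slc25a15 was bound at its start in both lists, 1 gene or 2.13% against 2.55%. Within the gene bodies alone the FGF19 shares were 12.8% of carriers and 12.5% of all genes, and within 10 kb they were 31.9% and 18.9%. The carriers stood near the background at their own starts and bodies. With FGF19 the wider windows gave higher shares than the background, with few genes behind them. With vehicle the carriers' share stayed at 6.38% from the gene bodies to 10 kb, against 5.67% and 9.32% of all genes.

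**Figure D1:**
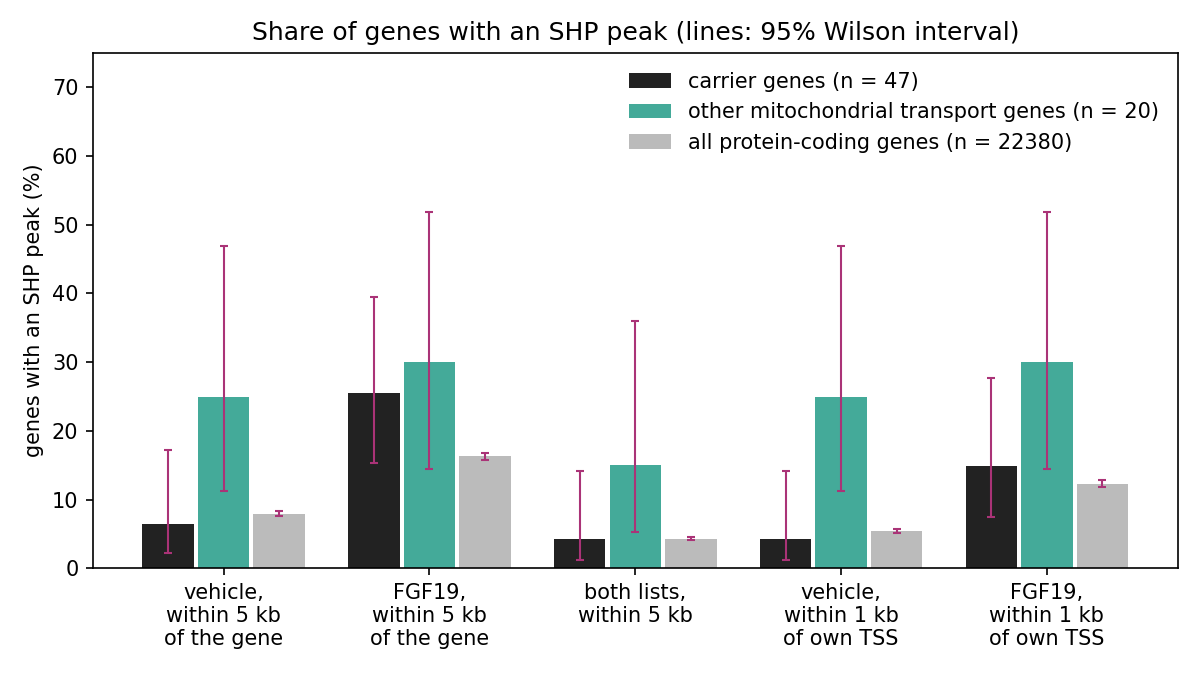
Percent of genes with an SHP peak (vertical axis) under 5 rules (horizontal axis). Bars are the 47 carrier genes, 20 other genes of mitochondrial transport (some of them renamed carrier genes) and all 22380 protein-coding genes. Lines are 95% Wilson intervals for counting error. The carriers' bar exceeds that of all genes most for FGF19 peaks within 5 kb (25.5% against 16.3%) and lies close to it for FGF19 summits within 1 kb of the gene's own TSS (14.9% against 12.3%).

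Of the 13 FGF19 peaks, 7 had the summit within 1 kb of the carrier's own TSS, 4 lay at the start of another gene only, and 2 were near neither. The 7 at own starts were those of Slc25a15, Slc25a16, Slc25a29, Slc25a38, Slc25a39, Slc25a42 and Slc25a46, with summits 100 to 644 bp from the TSS. The Slc25a46 summit was nearer to the TSS of B930094E09Rik, 159 bp away, and that peak cannot be ascribed to one of these 2 genes. Their fold enrichments over input ranged from 3.01 to 4.27 with a median of 3.83. The 4 at other genes ranged from 3.43 to 4.31 with a median of 4.20.

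**Figure D2:**
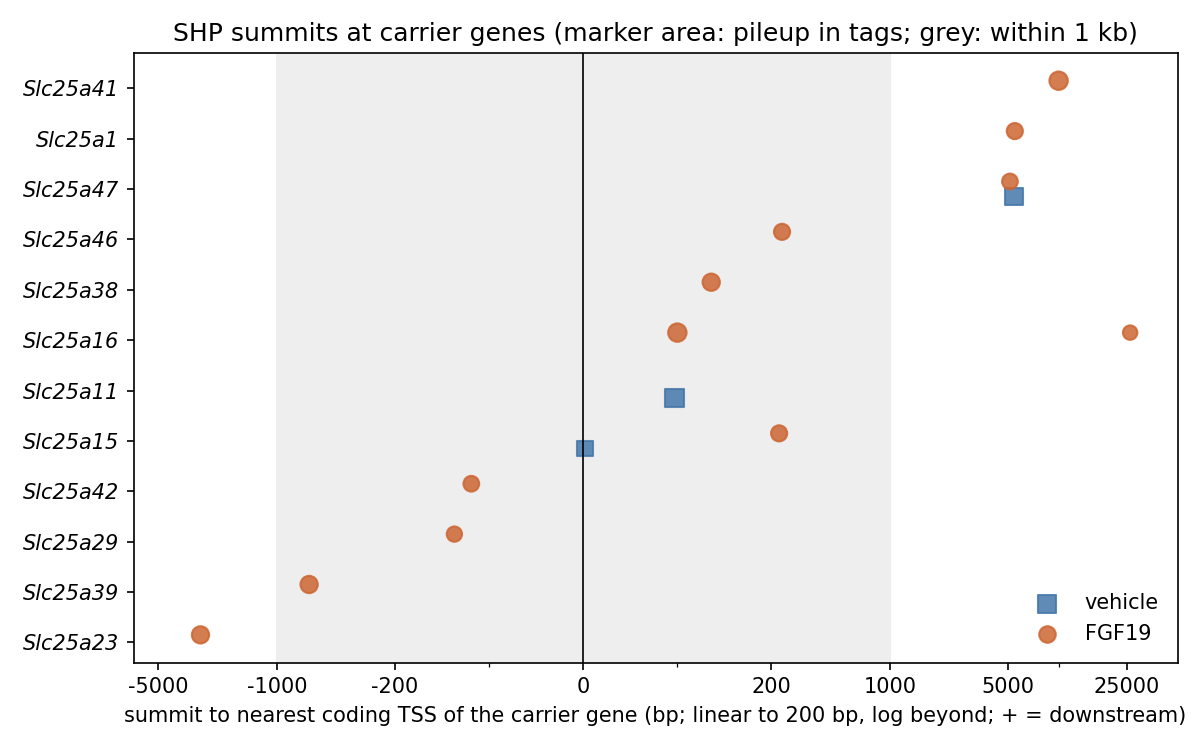
Distance of each SHP summit from the nearest coding TSS of its carrier gene (horizontal axis in bp, linear to 200 bp and logarithmic beyond, downstream positive), 1 row for each of 12 genes, with marker area in proportion to pileup. The summits of 7 FGF19 peaks (circles) and 2 vehicle peaks (squares) fall in the grey band within 1 kb of the TSS, and the second Slc25a16 peak lies farthest, 26262 bp downstream.

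Of the 13 carboxylate and amino acid carriers, 2 had a vehicle peak and 4 an FGF19 peak, beside 7.93% and 16.3% of all protein-coding genes. Slc25a15 encodes the ornithine/citrulline exchanger that joins the matrix and cytosolic steps of the urea cycle. In mm9 the gene spans bases 23486026 to 23509093 of chromosome 8 and is read from the minus strand. Its vehicle peak ran from 23508782 to 23509100, with the summit in the first exon 2 bp downstream of the TSS. That summit was close to the edge of its interval, at the upstream end. Its FGF19 peak ran from 23508659 to 23509053, with the summit in the first intron, 222 bp downstream. The pileup, the height of extended tags at the summit, was 19 with vehicle and 20 with FGF19. Enrichment over input was 2.96-fold in the vehicle list and 4.27-fold in the FGF19 list, which is 0.53 higher on the log2 scale. The local input background, worked out from pileup and fold enrichment, was 5.76 tags at the vehicle summit and 3.92 at the FGF19 summit. Heights that were nearly equal thus stood beside unequal enrichments, and the summits were 220 bp apart. The vehicle peak was close to the list's limit, with a -log10 q of 1.95 that only 3.65% of the vehicle peaks did not exceed, against 4.91 for the FGF19 peak. The 2 peaks shared 272 bp, 85.3% of the shorter, and with 1 library per group a move of binding was not tested. The sequences around both summits are given 5′ to 3′ on the minus strand of mm9, to show the base composition at each. The vehicle stretch is chr8:23509064-23509191 with the summit at base 101. The FGF19 stretch is chr8:23508771-23508941 with the summit at base 71.
Slc25a15 vehicle: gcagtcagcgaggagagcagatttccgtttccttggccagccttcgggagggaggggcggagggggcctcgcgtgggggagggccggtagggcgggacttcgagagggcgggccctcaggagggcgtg
Slc25a15 FGF19: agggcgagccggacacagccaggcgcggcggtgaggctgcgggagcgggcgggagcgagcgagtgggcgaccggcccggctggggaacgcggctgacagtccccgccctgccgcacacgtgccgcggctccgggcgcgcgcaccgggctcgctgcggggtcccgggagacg

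The printed stretches were 71.9% G and C at the vehicle summit and 80.7% at the FGF19 summit. Neither holds a match to any motif searched, and both are in lower case throughout.

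Slc25a11 encodes the oxoglutarate/malate carrier of the malate-aspartate shuttle. Its vehicle peak, on chromosome 11 from 70460625 to 70461001, had a pileup of 27 and a fold enrichment of 3.23, the highest pileup of the 3 vehicle peaks. The summit lay 97 bp downstream of the Slc25a11 TSS in a non-coding part of an exon. It also lay 95 bp downstream of the TSS of Rnf167, a ubiquitin ligase gene on the opposite strand, and the peak cannot be ascribed to one of these genes. The annotated gene start of Slc25a11 and a start of Rnf167 are 192 bp apart. The nearest FGF19 peak was 52670 bp from the gene. A gene without a listed peak had no peak past the authors' cutoff, and the signal below it was not analysed here.

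The other carriers of this class were in the FGF19 list only. Slc25a38, which imports glycine for heme synthesis, had a peak on chromosome 9 from 120019439 to 120019890 with the summit in a coding exon, 136 bp downstream of the TSS. Its pileup was 23 and its fold enrichment 3.97. Slc25a29, a carrier of basic amino acids, was covered on chromosome 12 from 110074165 to 110074480, with the summit 137 bp upstream of the TSS. Its pileup was 18 and its fold enrichment 3.63. Slc25a1, the citrate carrier that feeds cytosolic acetyl-CoA to fatty acid and sterol synthesis, had a peak beyond its 3′ end and none at its start. That peak, on chromosome 16 from 17921947 to 17922232, lay 3072 bp outside the gene and 5474 bp from its nearest coding TSS. It had the lowest fold enrichment of the 13 FGF19 carrier peaks, 2.92, with a pileup of 20. The genes of the class without a peak included Slc25a13 and Slc25a12, the aspartate/glutamate carriers, Slc25a10, the dicarboxylate carrier, and Slc25a22, a glutamate carrier.

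The carriers of nucleotides, phosphate and coenzymes, 15 genes, had no vehicle peak, and 5 of them had an FGF19 peak, beside 7.93% and 16.3% of all protein-coding genes. Only Slc25a42 and Slc25a16 of these 5 were bound at their own start. Slc25a42 exchanges coenzyme A with adenine nucleotides. Its peak on chromosome 8 from 72736029 to 72736385 had the summit 119 bp upstream of the TSS, a pileup of 19 and a fold enrichment of 3.01. Slc25a16, a carrier linked to the mitochondrial coenzyme A supply, had 2 peaks. The peak at its start ran on chromosome 10 from 62383414 to 62383732, with the summit in a coding exon 100 bp downstream of the TSS. Its pileup was 26 and its fold enrichment 3.83. The peak past its end ran from 62409464 to 62409843, 218 bp outside the gene. It lay 84 bp upstream of the TSS of Dna2, a nuclease and helicase gene, and had a pileup of 16 and a fold enrichment of 4.15.

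The other 3 genes of this class were counted through peaks at a neighbour. Slc25a41 and Slc25a23, both ATP-magnesium/phosphate carriers, were among them and are neighbours on chromosome 17. The peak counted for Slc25a41 was 212 bp from the TSS of Khsrp, a gene of RNA binding and decay, with a pileup of 26 and a fold enrichment of 3.43. The peak counted for Slc25a23 was 176 bp from a TSS of Crb3, an epithelial polarity gene, and 2821 bp upstream of the carrier's own TSS. Its pileup was 23 and its fold enrichment 4.25. Slc25a3, the phosphate carrier, and Slc25a4, Slc25a5 and Slc25a31, the ADP/ATP carriers, had no peak in either list.

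Sequence around the FGF19 summits at carrier starts, other than those of Slc25a15 above and Slc25a46, is printed in order of fold enrichment to set the motif matches in their context, and the stretch at Dna2 was added after its match had been seen. Each line runs 5′ to 3′ on the carrier's strand of mm9. The stretches are chr11:102269804-102270004 (minus strand, summit at base 101) for Slc25a39, chr9:120019532-120019728 (plus, base 97) for Slc25a38, chr10:62383470-62383628 (plus, base 59) for the start of Slc25a16, chr12:110074130-110074330 (minus, base 101) for Slc25a29, chr8:72736223-72736423 (minus, base 101) for Slc25a42 and chr10:62409590-62409790 (plus, base 101) for the second Slc25a16 peak. Capitals mark matches on either strand to the cyclic AMP element TGACGTCA, the NF-Y sequence ATTGGC or its core CCAAT, and the NRF1 sequence GCGCATGC.
Slc25a39: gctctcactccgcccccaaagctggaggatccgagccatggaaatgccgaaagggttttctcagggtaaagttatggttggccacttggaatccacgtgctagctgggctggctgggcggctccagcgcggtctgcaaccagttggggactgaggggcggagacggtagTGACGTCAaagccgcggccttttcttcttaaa
Slc25a38: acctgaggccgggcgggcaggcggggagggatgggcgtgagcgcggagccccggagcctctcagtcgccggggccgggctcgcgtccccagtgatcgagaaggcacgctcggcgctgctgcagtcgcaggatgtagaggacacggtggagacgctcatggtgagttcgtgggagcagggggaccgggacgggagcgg
Slc25a16: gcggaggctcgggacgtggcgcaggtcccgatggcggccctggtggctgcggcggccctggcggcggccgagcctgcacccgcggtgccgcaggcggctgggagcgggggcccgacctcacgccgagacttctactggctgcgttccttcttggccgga
Slc25a29: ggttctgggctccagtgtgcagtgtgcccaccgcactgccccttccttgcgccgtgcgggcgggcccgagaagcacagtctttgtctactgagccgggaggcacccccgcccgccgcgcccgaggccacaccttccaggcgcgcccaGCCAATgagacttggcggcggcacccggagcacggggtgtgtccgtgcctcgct
Slc25a42: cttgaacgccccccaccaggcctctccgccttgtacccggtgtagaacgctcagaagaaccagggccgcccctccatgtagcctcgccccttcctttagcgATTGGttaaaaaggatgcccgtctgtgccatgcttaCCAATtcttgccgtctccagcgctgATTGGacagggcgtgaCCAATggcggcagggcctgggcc
Slc25a16, at Dna2: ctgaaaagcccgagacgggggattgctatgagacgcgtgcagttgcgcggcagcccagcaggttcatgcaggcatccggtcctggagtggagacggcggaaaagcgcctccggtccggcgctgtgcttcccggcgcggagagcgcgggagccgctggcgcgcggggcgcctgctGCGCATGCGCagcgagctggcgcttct

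The stretches at Slc25a38 and at the start of Slc25a16 hold no match. The 7 motifs were read as exact matches on either strand within 100 bp of the summit: the YY1 core AANATGGC, SP1 CCCCGCCCC, NF-Y ATTGGC, the nuclear receptor half-site AGGTCA, NRF1 GCGCATGC, ETS/GABP CCGGAAGT and the cyclic AMP element TGACGTCA. NRF1 and GABP are known as activators of nuclear genes for mitochondrial proteins. NF-Y was in 3 of the 13 FGF19 windows, against 11.1% of the 3148 FGF19 windows read and 12.0% of windows at protein-coding gene starts. These were the window at the Slc25a29 start and those counted for Slc25a23 and Slc25a41, which are at the Crb3 and Khsrp starts. NRF1 was in 1 window, that at the Dna2 start, where overlapping matches on both strands form 1 palindrome, against 3.49% of all FGF19 windows and 2.58% of gene starts. The cyclic AMP element was in 1, that of Slc25a39, against 1.87% and 1.93%. ETS/GABP was in the vehicle window of Slc25a11, 1 of 3, against 3.32% of all vehicle windows and 4.22% of gene starts. The YY1 core, SP1 and the half-site were in 0 of the 16 windows, against 7.56%, 14.8% and 7.15% of all FGF19 windows and 9.75%, 13.1% and 9.08% of all vehicle windows. The shorter core CCAAT, which is contained in the NF-Y sequence and was searched after the windows had been read, was in 4 FGF19 windows, with 4 occurrences at Slc25a42, and in the vehicle window of Slc25a11, against 21.7% of all FGF19 windows, 23.5% of all vehicle windows and 27.4% of gene starts. With so few windows these counts describe single sites.

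Of the 9 carriers of less settled or non-transport role, 3 had a peak of either list, beside 19.9% of all protein-coding genes. Slc25a47, a liver-enriched carrier gene, had one in both lists, and in neither was it at the start. The gene lies on chromosome 12 from 110089339 to 110095024, on the plus strand, and the peaks lay over its last exon. The vehicle peak ran from 110094349 to 110094914 and the FGF19 peak from 110094238 to 110094911. Both summits were in the non-coding part of the exon, 5403 bp downstream of the TSS with vehicle and 5123 bp with FGF19. The pileup was 23 with vehicle and 19 with FGF19. Enrichment over input was 5.68-fold in the vehicle list and 3.54-fold in the FGF19 list, a log2 ratio of -0.68. The vehicle peak was the strongest carrier peak of either list by fold enrichment and by -log10 q (8.37), and stood at the 84.4 percentile of the vehicle list by fold enrichment. The windows around both summits were poor in CG dinucleotides, with an observed-to-expected ratio of 0.247 with vehicle and 0.336 with FGF19, against medians of 0.79 and 0.864 in the lists.

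Slc25a39, linked to glutathione import and heme synthesis, had an FGF19 peak on chromosome 11 from 102269752 to 102270069. The summit was 644 bp upstream of the TSS, with a pileup of 23 and a fold enrichment of 4.12. Slc25a46, an outer membrane member tied to mitochondrial shape, had an FGF19 peak whose summit was in its coding exon, 231 bp from its TSS and 159 bp from the TSS of B930094E09Rik on the opposite strand. Its pileup was 20 and its fold enrichment 3.59.

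The remaining classes are small and had no peak within 5 kb, as was so for 80.1% of all protein-coding genes. The 4 acylcarnitine, methyl donor and metal carriers, Slc25a20, Slc25a26, Slc25a28 and Slc25a37, had no peak in either list. Neither did the 6 uncoupling proteins and relatives, Ucp1, Ucp2, Ucp3, Slc25a14, Slc25a27 and Slc25a30. For Slc25a20, the carnitine/acylcarnitine carrier of fatty acid oxidation, the nearest peaks were 94610 bp away with vehicle and 83269 bp with FGF19.

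The 5 kb limit separated close cases. Just inside it were the FGF19 peaks of Slc25a23, 2423 bp from the gene with a fold enrichment of 4.25, and of Slc25a1, 3072 bp away with 2.92. Just outside were FGF19 peaks 5809 bp from Slc25a33 (3.37), 6959 bp from Slc25a10 (4.14) and 7500 bp from Slc25a30 (4.73), each with the summit within 239 bp of the start of another gene. With vehicle no peak lay between the gene bodies and 10 kb from them.

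Slc25a15 and Slc25a47 were the 2 regions common to both lists, with 272 and 563 bp shared. By fold enrichment they differed in opposite directions, with log2 ratios of FGF19 to vehicle of 0.53 and -0.68. The 686 vehicle peaks overlapped by an FGF19 peak had a median of -0.01 and quartiles of -0.36 and 0.32. Both carrier values were outside these quartiles, which by definition leave out many of the 686, and the differences were not tested. By pileup per 1000000 filtered tags the log2 ratios were smaller, 0.28 at Slc25a15 (1.23 to 1.49) and -0.07 at Slc25a47 (1.49 to 1.41). Tags were extended to 240 bp with vehicle and 260 bp with FGF19, and the pileups were not scaled for this. Ratios of pileup this near 0 therefore give no direction. The summits were 220 and 280 bp apart, whereas 67.3% of all such pairs had summits within 100 bp.

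**Figure D3:**
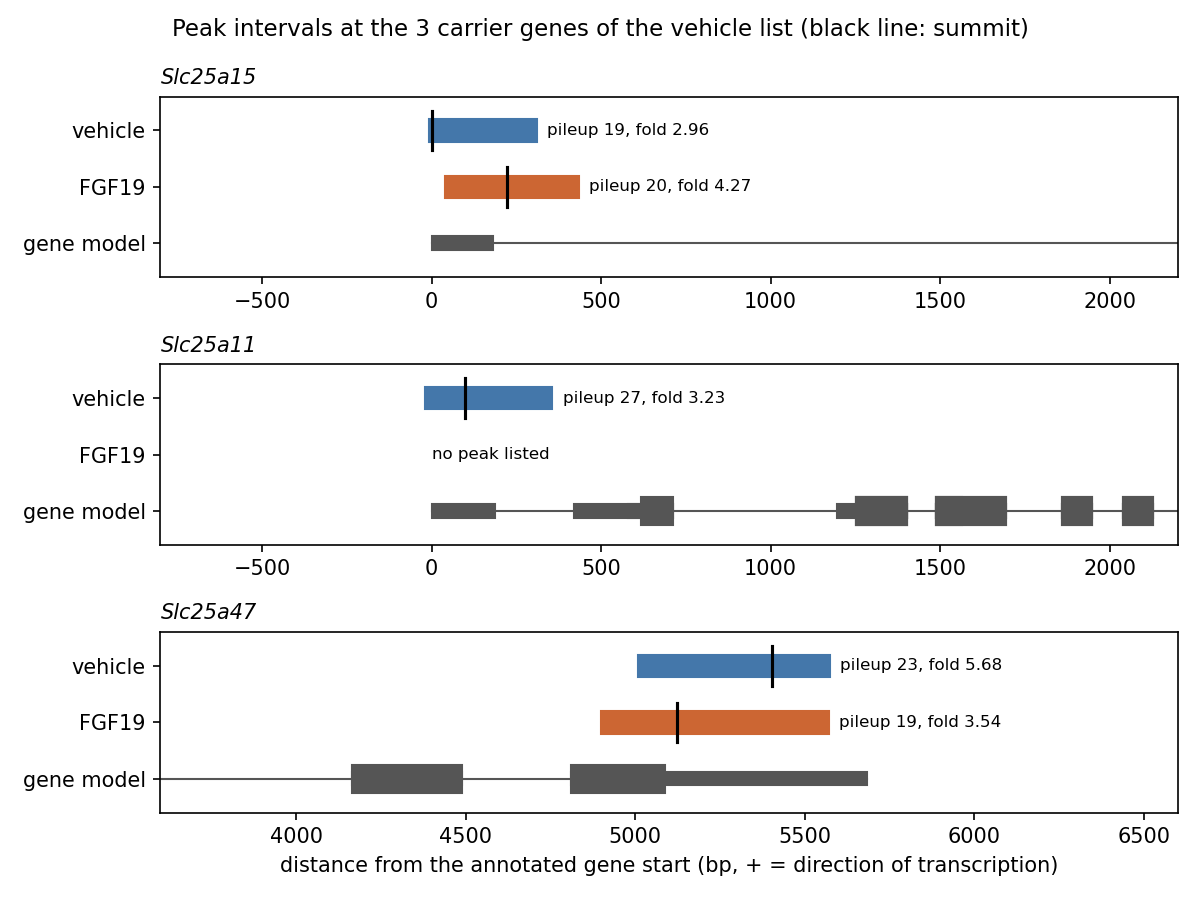
Peak intervals of the vehicle and FGF19 lists at Slc25a15, Slc25a11 and Slc25a47 against distance from the annotated gene start in bp (horizontal axis), with the summit as a black line and exons as boxes (tall where coding). The Slc25a15 and Slc25a11 peaks overlap the first exon, with the Slc25a15 FGF19 summit in the intron after it, and both Slc25a47 peaks lie over the last exon.

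Most carrier peaks were below the medians of their lists. With FGF19 the fold enrichments ranged from 2.92 to 4.31, all below the upper quartile of the list (4.74), and the median was 3.83 against 4.05. Of the 13 peaks, 5 were above the list median by fold enrichment, 3 by pileup (list median 24 tags) and 4 by -log10 q (list median 5.08). The highest pileup, 30, and the highest -log10 q, 7.57, were above the list's upper quartiles of 29 and 7.27. With vehicle the fold enrichments were 2.96, 3.23 and 5.68, and 1 of the 3, that of Slc25a47, was above the list median of 4.14 and the upper quartile of 5.02. The pileups spanned 16 to 30 tags with FGF19 and 19 to 27 with vehicle.

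**Figure D4:**
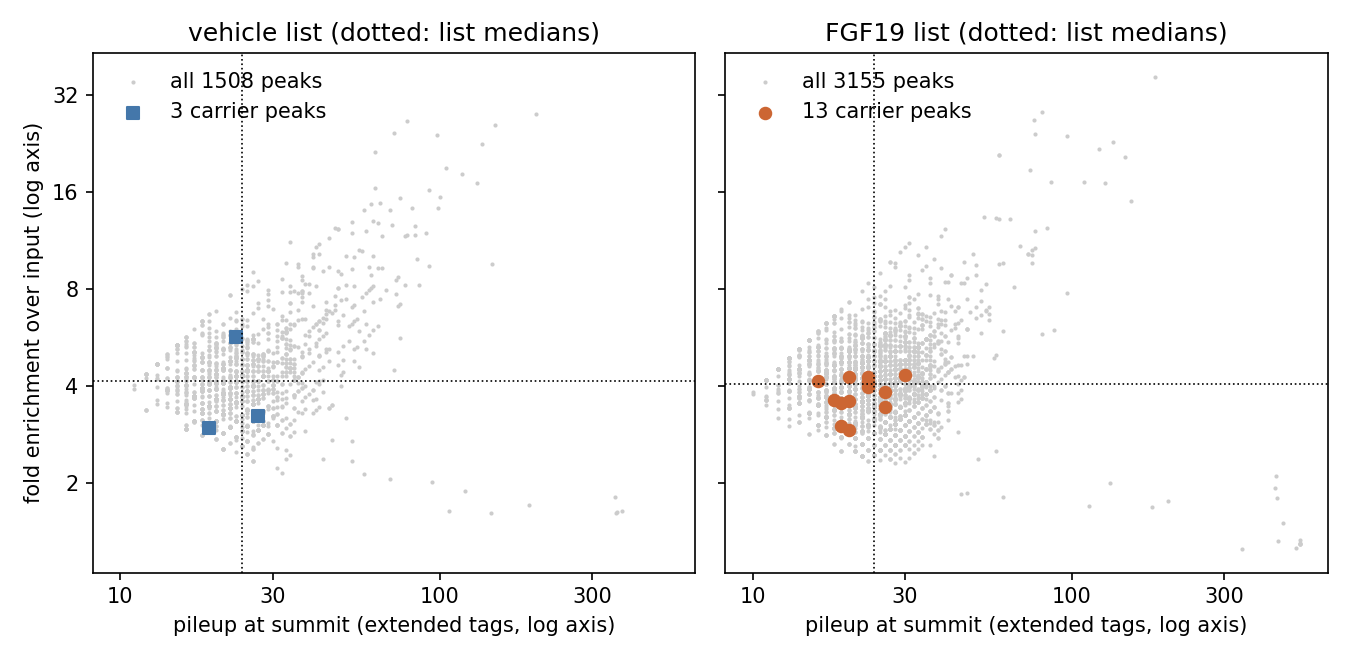
Fold enrichment over input against pileup at the summit (both axes logarithmic) for all peaks (grey) and carrier peaks (coloured) of the vehicle list (left) and FGF19 list (right); dotted lines are list medians. The 13 FGF19 carrier peaks lie between 16 and 30 tags and below a fold enrichment of 4.74, the list's upper quartile.

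The promoters of the carriers, read from 250 bases before to 50 after the annotated gene start in mm9, had a median of 60.0% G and C against 55.0% for all protein-coding genes. The NF-Y sequence was in 13 of 47, 27.7% against 16.1%, and the NRF1 sequence in 1, that of Slc25a31, 2.13% against 3.30%. SP1 was in 8.51% against 14.7%, the half-site in 19.1% against 14.4%, and the YY1 core in 6.38% against 6.55%. ETS/GABP was in 6.38% against 4.69%, and the cyclic AMP element in 4.26% against 2.32%. Of the 7 carriers bound at their own start with FGF19, 1 held the NF-Y sequence in this window, Slc25a29, and of the other 40 carriers 12 did. The median G and C content was 60.7% in the 7 and 59.5% in the 40. In windows of 100 bp either side of the gene start, the NF-Y shares were 17% of the carriers and 12% of all protein-coding genes.

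Of 21 listed genes for mitochondrial transport outside this naming, 20 were found in the annotation. They include Mcart1, Mcart6, Mtch1 and Mtch2, carrier genes that have been renamed, so the 20 are not all outside the family. Of these renamed genes, Mtch1 had a vehicle peak and Mtch2 an FGF19 peak. With vehicle 5 of the 20 had a peak and with FGF19 6, each with a summit within 1 kb of the gene's own TSS, where 5.43% and 12.3% of all protein-coding genes had one. The strongest was at Vdac2, an outer membrane channel, with a fold enrichment of 7.47 and a pileup of 65 with vehicle and 7.97 and 52 with FGF19, above every carrier peak. Both genes of the mitochondrial pyruvate carrier, annotated as Brp44l and Brp44, were bound with FGF19, and Brp44 also with vehicle. The shares were 25% (11.2 to 46.9) with vehicle and 30% (14.5 to 51.9) with FGF19, and the all-gene shares within 5 kb of 7.93% and 16.3% lay below the first interval and inside the second. Both intervals overlapped those of the 47 carriers, and the difference from the 47 was not tested.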

How the data were processed

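SHP ChIP and input libraries from liver were pooled from 3 mice per group, and each group gave 1 peak list. Reads were mapped by the authors with Bowtie 1.0.0 (mm9), per the labels, and peaks were called over the group's input with MACS2 2.0.10.20130501, where the q-value limit was 0.05 and duplicates were cut to 1 tag per site. The deposited signal is the pileup of extended ChIP tags at the summit. The deposited fold enrichment is a ratio of pileup to local input background. Significance was deposited as the caller's -log10 q-value and -log10 p-value. Coordinates are 1-based.

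Peaks were joined to GENCODE M1 genes on the same build with Python 3.11.15, pandas 2.3.3 and numpy 2.4.6, and Wilson intervals were made with scipy 1.17.1. The local background was computed as (pileup + 1) / fold enrichment - 1. Peaks sharing at least 1 bp were common. The genome was read for sequence. The functions were tested on simulated data. The members and lists were chosen with earlier results of these data known. Every carrier with a peak within 5 kb is named, except 1 that is counted but not reported here, and sequences are given for summits at carrier starts, common regions first and then by fold enrichment, without Slc25a46 and Slc25a11. Windows, thresholds, overlap, TSS and measure were varied.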

Additional observations from a re-analysis of the deposited data

How the results depend on the processing

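With 1 library per group, no library could be left out. No paired analysis was possible because the groups have no replicates. Counts of genes stayed within 1.5 times of those reported under the alternatives that are not named here. With a fold enrichment of at least 4, 1 carrier gene had a vehicle peak, 5 had an FGF19 peak and 0 had both. The FGF19 list shortened to the length of the vehicle list left 4 carrier genes with FGF19 (Slc25a16, Slc25a23 and Slc25a39 among them) and 0 in both lists. The genes bound with FGF19 and vehicle were then 4 and 3. At this fold limit, for the shortened list and at the q limits below, the share of all protein-coding genes is not given. These counts therefore have no background here. With FGF19, 6 genes remained with peaks touching the gene body and 7 with a summit within 1 kb of an own TSS. Genes in both lists numbered 1 under the TSS rule and 1 at a -log10 q of at least 2 or 3, where the vehicle peak of Slc25a15 was lost. With summits at most 100 bp apart, 0 regions were common. The FGF19 summits within 1 kb of a TSS were 11 of 13 when any annotated transcript counted. By coding transcripts, 7 lay at the carrier's own start, Slc25a46 among them, and 4 at the start of another gene only. The median log2 ratio over the 2 common regions was -0.08 by fold enrichment, -0.10 by pileup and 0.10 by pileup per 1000000 filtered tags. This is a change of sign between values near 0. Neither pileup measure was scaled for the tag extension, 240 bp with vehicle and 260 bp with FGF19. Between 16 and 30 tags stood behind each FGF19 carrier summit, and a peak in 1 list only is not shown to be absent in the other.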

Other observations

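Just outside the 5 kb limit, the FGF19 peak 6959 bp from Slc25a10 had its summit 239 bp from the TSS of Mrpl12, a mitochondrial ribosomal protein gene, with a pileup of 24 and a fold enrichment of 4.14. This neighbour was chosen after its values were seen.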
